A study of Mus musculus with 2 samples.

Results

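The axon guidance families were described in single-nucleus RNA sequencing of developing mouse kidney. Genes were taken by symbol: semaphorins of classes 3 to 7, plexins, Slits, Robos, netrins, netrin-Gs, the netrin receptors Dcc and Unc5, Eph receptors and ephrins. The rule gave 69 of the 32285 genes in the files, of which 20 were semaphorins, 14 Eph receptors, 9 plexins, 5 ephrin-As, 3 ephrin-Bs, 5 netrin receptors, 4 netrins, 2 netrin-Gs, 4 Robos and 3 Slits. The study holds 1 library of nuclei from whole kidneys at embryonic day E18.5 and 1 at postnatal day P3, each from kidneys pooled over male and female mice. The E18.5 mice carried the alleles Mycf/f;Mycnf/f (no Cre) on a mixed background, so both genes were floxed and no recombinase was present to delete them. The P3 mice were labelled Wild type on the C57BL/6J background, whereas the methods of the study name a mixed background for both ages. Age, genotype, background, library and the release of the counting software thus cannot be told apart.

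These families were named for steering growing axons. Slits are secreted ligands of Robo receptors, netrins bind Dcc and Unc5 receptors, semaphorins act through plexins, often with neuropilins as co-receptors, and ephrins are held on the cell surface and signal to Eph receptors on the neighbouring cell. The same proteins shape vessels and epithelia. In the kidney, Slit2 and Robo2 are known for keeping the ureteric bud from branching at extra sites, ephrin-B2 and EphB4 for parting arteries from veins, and Sema3a and Sema3e for their action on endothelium.

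After quality limits and removal of called doublets, 17836 of 21600 barcodes with 56782625 unique molecular identifiers (UMIs) were kept at E18.5, and 9658 of 12216 barcodes with 45028214 UMIs at P3. The median nucleus held 2923 UMIs at E18.5 and 4031 at P3, and 69 barcode sequences occurred in both libraries. Nuclei were grouped without use of the members or of 44 further genes of their pathways, and a group was called, for example, podocyte-like where at least 3 marker genes were raised in it. This gave 11 classes of at least 100 nuclei at E18.5 and 9 at P3. Nephron progenitor-like and mural-like nuclei formed such a class at E18.5 only, since the P3 library held 31 mural-like nuclei and its cluster with Eya1 among its leading genes had 4 early nephron and 2 nephron progenitor markers raised and stayed unnamed. All 9 endothelial, all 7 leukocyte and all 8 proximal tubule markers were raised in at least 1 cluster of their class at E18.5, and 3 of 7 nephron progenitor markers were. Clusters of low UMI number, 2921 nuclei at E18.5 and 1624 led by hemoglobin genes at P3, stayed unnamed. Levels, written CPM, are UMIs of a gene for each 1000000 UMIs of the class. They are given with exact 95% intervals that cover counting error only, since no library was replicated and no test between groups was possible.

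Together the members held 498381 UMIs (8777 CPM) at E18.5 and 383366 UMIs (8514 CPM) at P3. Of the 69 members, 51 had at least 50 UMIs in all and 20 in their highest class at both ages, 5 at E18.5 only (Efna2, Epha2, Epha5, Sema6b and Sema6c) and 5 at P3 only (Efna4, Efnb3, Ephb6, Ntn3 and Sema3b). The other 8, Efna3, Epha6, Epha8, Epha10, Ntn5, Plxnb3, Sema4f and Unc5a, were too sparse to rank at either age, although none was at 0 UMIs. Robos gave 2573 CPM at E18.5 and 1468 at P3, semaphorins 1771 and 2711, netrin receptors 1293 and 1123.5, and Slits 1083 and 1145. Plexins gave 287 and 342 CPM and netrins 156 and 157. Long genes can gather more UMIs in nuclei where intronic reads are counted, which is not known here. Single members were therefore ranked against each other per 100 kb of gene span, a scale that raises short genes such as Efna4 (4.639 kb). Sums of families, and levels of different genes set side by side elsewhere, are in CPM and not scaled by span. On that scale Efnb1 (415 CPM per 100 kb), Robo2 (376), Efna4 (337) and Unc5c (323) were the highest members at E18.5, and Unc5c (275), Slit2 (270.5), Sema5a (265) and Efna4 (237) at P3.

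Members were unevenly spread over the classes. Their summed level was 14757 CPM in podocyte-like nuclei and 13869 in nephron progenitor-like nuclei at E18.5, against 2296 in leukocyte-like and 5474 in proximal tubule-like nuclei. Much of both high sums came from Robo2 and Unc5c, at 7512 and 3002 CPM in podocyte-like and 6467 and 2741 in nephron progenitor-like nuclei. At P3 it was again highest in podocyte-like nuclei (14226 CPM), followed by interstitium-like nuclei (10881), and lowest in leukocyte-like (3266) and proximal tubule-like nuclei (4054). A member was called restricted where its highest class had at least 2 times the level of the next class, with 1 CPM added to both. At E18.5 this held for 19 of 56 members (33.9%), against 18.0% of all 12584 genes ranked the same way. At P3 it held for 25 of 56 (44.6%), against 22.5% of 13213 genes. The share over all genes includes the genes that formed the clusters, and neither share is a test. The 95% interval of the ratio lay wholly above 2 for 11 of the 19 and for 21 of the 25.

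**Figure D1:**
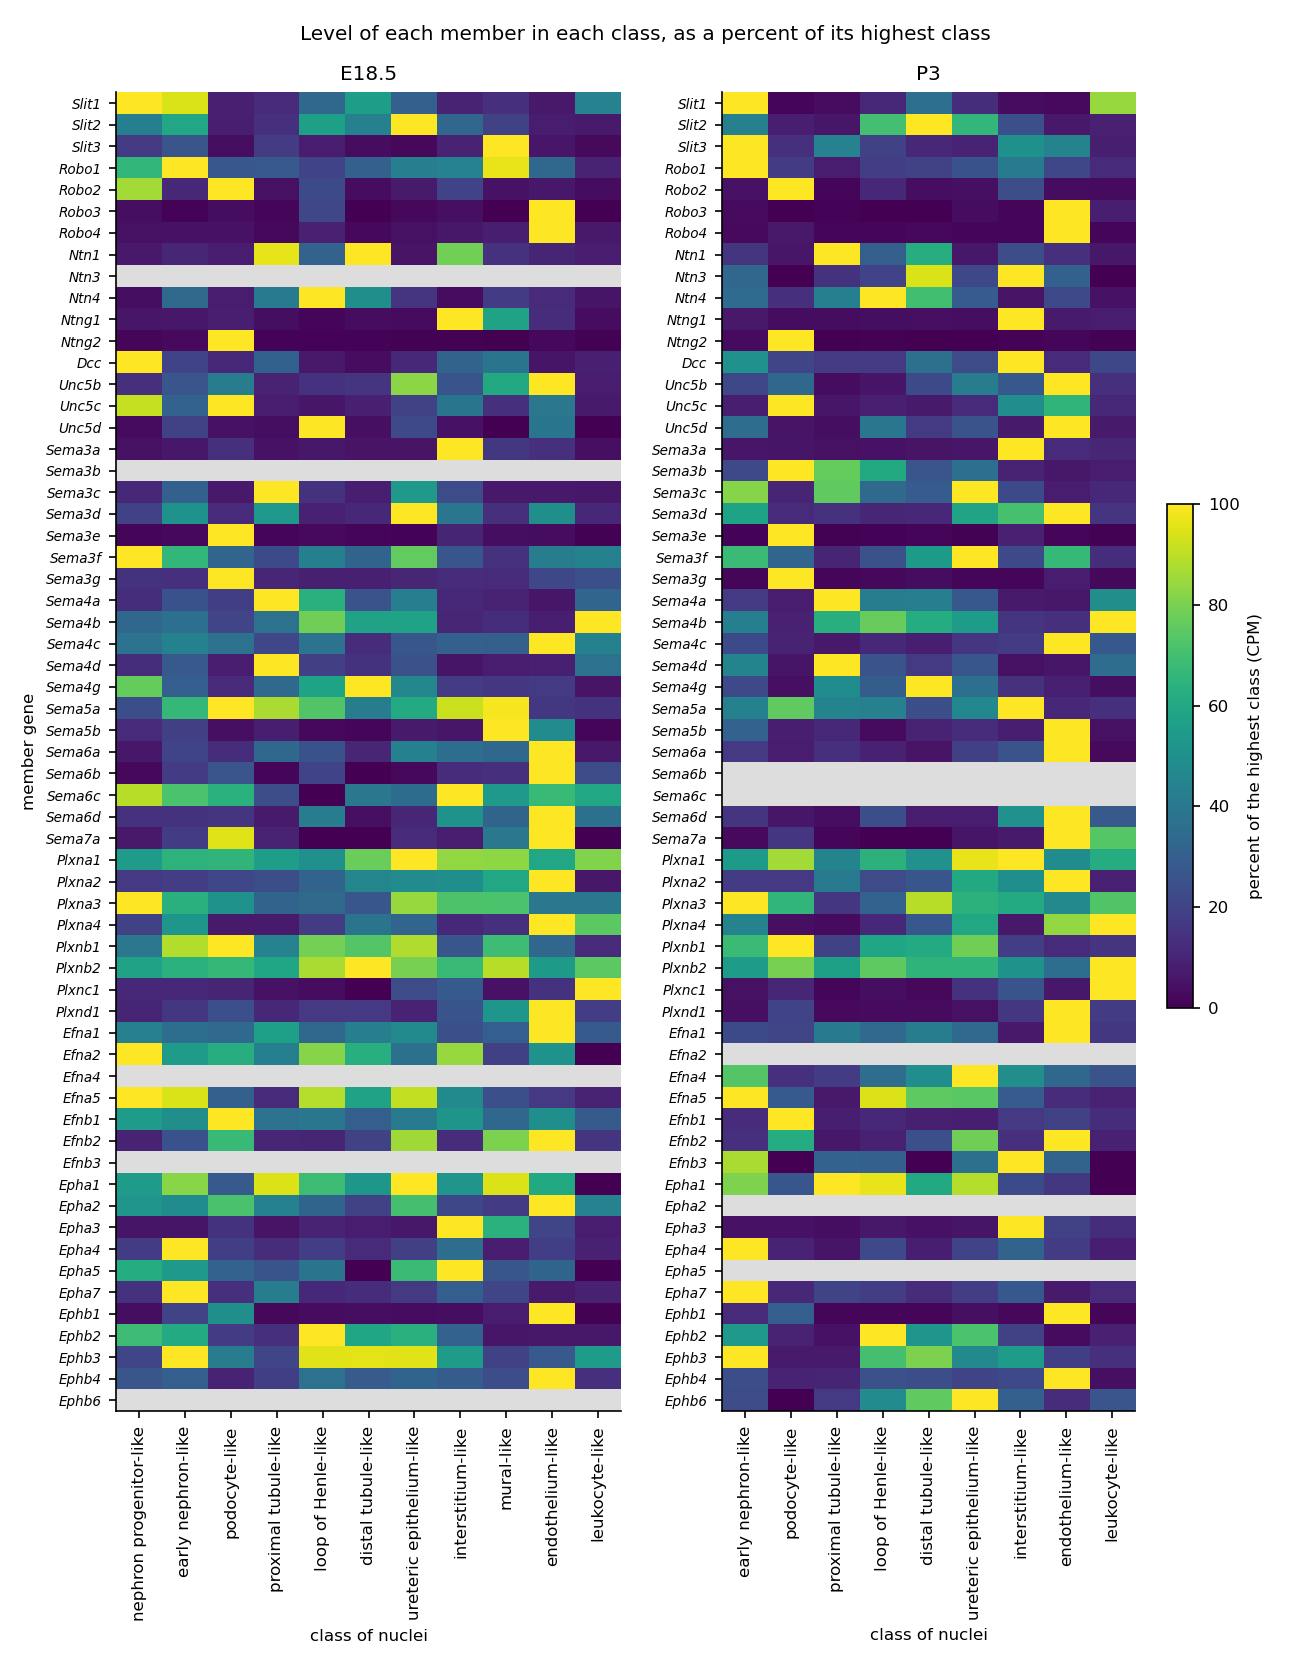
Level of the 61 members ranked at 1 age or both, in each class of nuclei (columns) at E18.5 and P3, as a percent of the member's highest class. Grey rows mark members not ranked at that age. Endothelium-like nuclei were the highest class of 16 of 56 members at each age, and podocyte-like nuclei of 8.

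Endothelium-like nuclei were the highest class for 16 of 56 members at both ages (28.6%), while they led 9.79% of all ranked genes at E18.5 and 11.7% at P3. Podocyte-like nuclei led 8 members (14.3%) at each age, against 6.15% and 6.86% of all genes. Proximal tubule-like nuclei led 3 members at E18.5 and 4 at P3, or 5.36% and 7.14%, where they led 12.9% and 16.5% of all genes. The leading class was the same at both ages for 34 of 51 members (66.7%), against 54.0% of all genes. It was the endothelium for 13 of them, the podocyte for 7, early nephron for 4 and interstitium for 3. With Leiden clustering the leading class was the same for 29 of 54 members, with no share over all genes given. Of the 16 members restricted at both ages, 14 kept their class: Ephb1, Ephb4, Robo3, Robo4, Sema4c and Sema6a in endothelium, Ntng2, Sema3e and Sema3g in podocytes, Epha4 and Epha7 in early nephron, Sema3a in interstitium, Sema4d in proximal tubule and Plxnc1 in leukocytes. The other two, Sema5b and Unc5d, had another leading class at P3. Over the 9 classes ranked at both ages, 23 of 56 members were restricted at E18.5, against 2461 of all 12761 genes. Of the members, 21 were restricted at both ages and 20 of these in the same class, Sema5b in endothelium included and Unc5d not. No share over all genes is given for those counts at both ages.

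The 2-fold call was not equally firm for the 16. In 7 of them, Ephb4, Ntng2, Plxnc1, Robo4, Sema3a, Sema3e and Sema3g, it held at both ages with doublets kept, with Leiden clustering, with 20 neighbors and as means of single nuclei. In 9 it was lost under at least 1 of these, where a log2 ratio of 1 with 1 CPM added is the limit. At E18.5 the ratio fell under it for Ephb1 (0.94 with doublets kept and 0.98 with Leiden clustering), Sema4c (0.92 and 0.97), Sema6a (0.93 with doublets kept) and Robo3 (0.48 as means of single nuclei). Epha4 and Epha7 lost it at E18.5, Epha7, Sema4d and Unc5d at P3, and Sema5b at E18.5, with values given beside them. Leiden clustering gave no value for Epha4 and Epha7 at P3 or for Unc5d at E18.5. For Sema5b at E18.5 neither Leiden clustering nor 20 neighbors gave one. Members restricted at 1 age only, such as Slit3, were not checked in this way.

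Slit2 and Robo2 were highest in different classes. Slit2, a secreted ligand, was highest in ureteric epithelium-like nuclei at E18.5 (2051 CPM), followed by early nephron (1231), loop of Henle (1169) and distal tubule-like nuclei (898). Leukocyte-like (146 CPM), endothelium-like (161) and podocyte-like nuclei (176) were low in Slit2 at E18.5, and proximal tubule-like nuclei, at 273 CPM, were the lowest tubule class. At P3 Slit2 was highest in distal tubule-like nuclei at 2757 CPM, ahead of the loop of Henle (1933) and ureteric epithelium (1821). Within the distal class the P3 cluster led by Plppr1, with the sodium channel genes Scnn1b and Scnn1g among its leading genes, held 4320 CPM of Slit2, and the cluster led by Slc12a3, the thiazide-sensitive salt transporter, 1428. At 1000 UMIs per nucleus, the P3 share of nuclei with Slit2 was 83.4% in the distal and 12.4% in the proximal tubule-like class. Without thinning, at median depths of 4680 and 6242 UMIs, the shares were 98.2% and 50.8%.

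Slit3 followed another pattern. It was restricted to mural-like nuclei at E18.5, at 1914 CPM. Early nephron-like nuclei came next with 512, and the former was 3.74 times the latter (3.51 to 3.98). At P3 early nephron-like nuclei were its highest ranked class at 471 CPM, 1.99 times the interstitium (1.87 to 2.12). In the 31 mural-like nuclei at P3, too few to be ranked, Slit3 stood at 7754 CPM, and the leading gene of that cluster was Ren1, which encodes renin. Slit1 had 48.5 CPM in nephron progenitor-like and 45.8 in early nephron-like nuclei at E18.5, levels whose ratio of 1.06 (0.919 to 1.22) spanned 1. At P3 the early nephron held 82.8 CPM and leukocyte-like nuclei 70.01, the latter from 35 UMIs, and the ratio of 1.18 (0.827 to 1.74) spanned 1 as well.

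Robo2, the receptor, had 110900 UMIs at E18.5. Its level was 7512 CPM in podocyte-like nuclei and 6467 in nephron progenitor-like nuclei, then 1687 in the loop of Henle, 1499.8 in interstitium and 823 in early nephron-like nuclei. The remaining ranked classes lay between 238 and 545 CPM. At P3 podocyte-like nuclei held 6048 CPM and the next class, interstitium, 1428, so that Robo2 was restricted to podocytes there by 4.23 times (4.11 to 4.36). With nephron progenitor-like and mural-like nuclei set aside, it was restricted to podocytes at E18.5 as well, at 4.45 times the loop of Henle (4.22 to 4.70). The unnamed P3 cluster of 902 nuclei led by Eya1 held 864 CPM of Robo2, 2511 of Unc5c, 1949.85 of Slit2 and 1382 of Robo1. In thinned nuclei Robo2 was found in 98.1% of podocyte-like nuclei at E18.5 and 95.9% at P3, and in 17.6% and 8.47% of proximal tubule-like nuclei, the class with the lowest share at each age. Median depths before thinning were 3046.5 and 4330 UMIs in podocyte-like and 3828.5 and 6242 in proximal tubule-like nuclei, and the unthinned shares were 100% and 100% against 47.4% and 40.5%.

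In podocyte-like nuclei, the highest class of Robo2, Slit2 was low, at 176 CPM at E18.5 and 226.5 at P3. Nephron progenitor-like nuclei, also high in Robo2, are not part of this comparison, so low Slit2 beside high Robo2 is stated for podocyte-like nuclei only. The unnamed P3 cluster led by Eya1 held more Slit2 than Robo2. Where Slit2 was highest, Robo2 was low, with 545 CPM in ureteric epithelium at E18.5 and 220 in distal tubule at P3. The genes were not apart in every class. Loop of Henle-like and early nephron-like nuclei at E18.5 held both, at the levels given above. Robo1, another Slit receptor, was highest in early nephron-like nuclei at both ages, at 1172 and 1799 CPM. At E18.5 mural-like nuclei reached 1134 CPM, a ratio of 1.03 (0.957 to 1.12). At P3 interstitium-like nuclei were next with 749.7 CPM, 2.40 times lower (2.32 to 2.48), and over the same 9 classes at E18.5 they were 2.25 times lower (2.19 to 2.31).

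**Figure D2:**
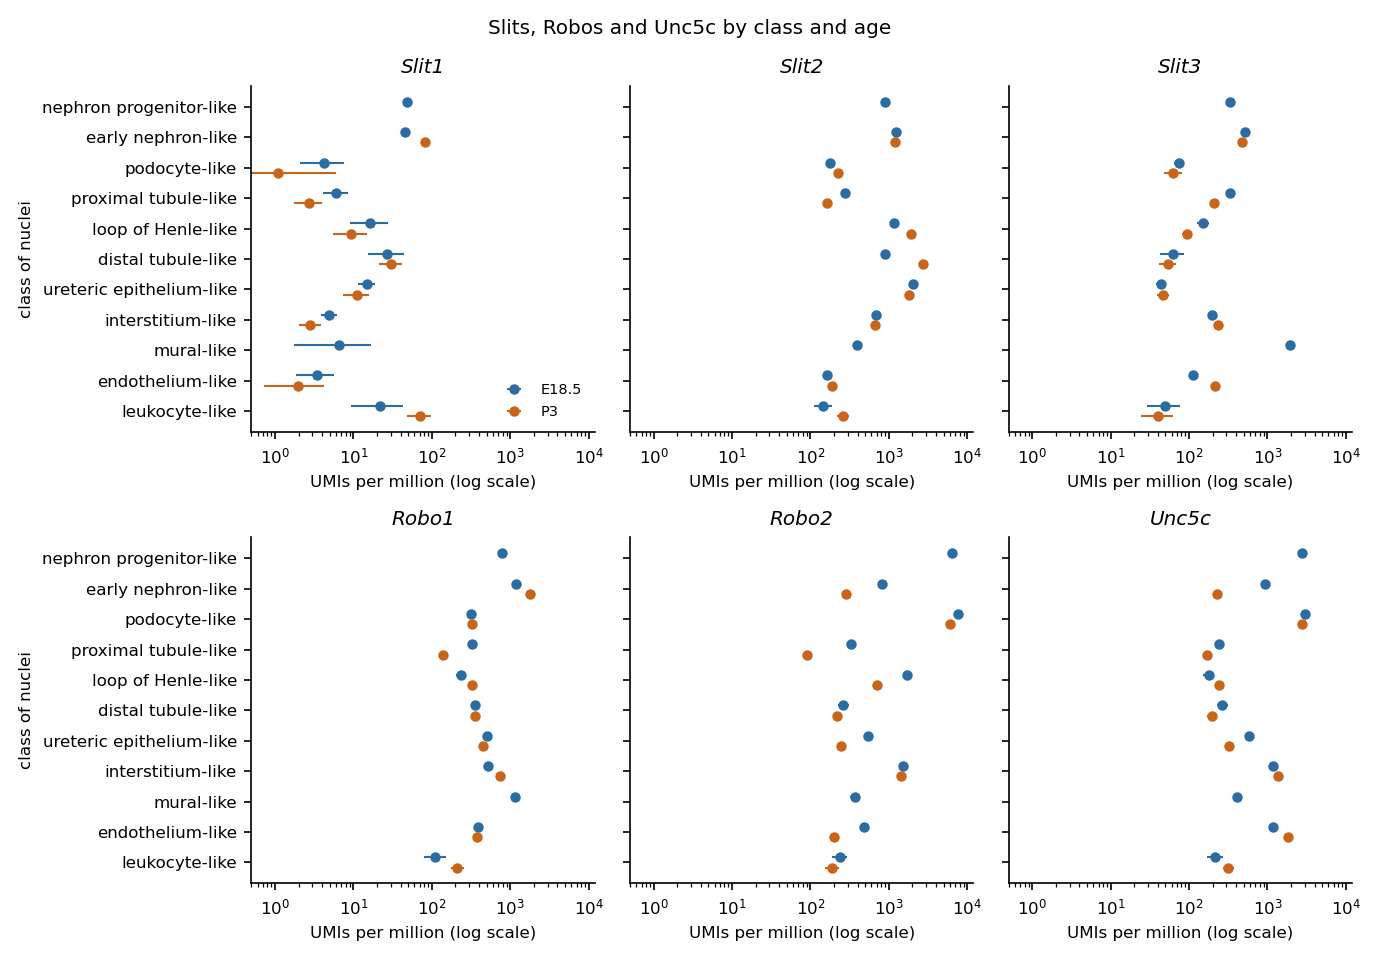
Level in CPM (log axis) of Slit1, Slit2, Slit3, Robo1, Robo2 and the netrin receptor Unc5c in each class at E18.5 (blue) and P3 (orange), with exact 95% intervals for counting error as bars. Robo2 stands at 7512 CPM in podocyte-like nuclei at E18.5, where Slit2 stands at 176, and nephron progenitor-like and mural-like nuclei were ranked at E18.5 only.

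Ntn1 and the netrin receptors ranked here also led in different classes. Ntn1, a secreted netrin, was highest in distal tubule-like (319.9 CPM), proximal tubule-like (308) and interstitium-like nuclei (251) at E18.5. At P3 it was highest in proximal tubule-like nuclei (341 CPM), and the interstitium held 81.2. This ranking is of whole classes. The Gria1-led interstitium-like cluster described below stood above all of them in Ntn1 at E18.5, but under the proximal tubule at P3. Unc5c, a receptor of Ntn1, was highest in podocyte-like nuclei at both ages, at 3002 and 2758 CPM, and these nuclei held 25.7 and 20.6 CPM of Ntn1. Nephron progenitor-like nuclei held 2741 CPM of Unc5c at E18.5, and endothelium-like nuclei 1186 at E18.5 and 1806 at P3. Dcc, the other main netrin receptor, was restricted to nephron progenitor-like nuclei at E18.5 (155 CPM, 2.59 times mural-like nuclei, 1.87 to 3.70). That call compares ranked classes only. At E18.5 the medullary interstitium-like cluster and the neuron-like nuclei described below both held more Dcc than nephron progenitor-like nuclei. At P3 the level of Dcc was 253 CPM in the unnamed cluster led by Eya1 and 46.3 in interstitium-like nuclei, the highest ranked class. Unc5b was highest in endothelium at 106 CPM at E18.5 and 150.4 at P3, where it was restricted (2.39 times ureteric epithelium, 1.995 to 2.87).

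Unc5d was restricted at both ages to different classes: loop of Henle-like nuclei at E18.5 (89.03 CPM against 34.6 in endothelium) and endothelium-like nuclei at P3 (82.3 CPM against 32.3 in the loop of Henle). With doublets kept, the log2 ratio at P3 was 0.51 in place of 1.32, so that the P3 restriction was lost. Within the P3 endothelium Unc5d ranged from 0 UMIs in 39 arterial nuclei to 348 CPM in a sub-cluster of 26 nuclei. In these 26 the venous markers Nr2f2 and Vwf were raised, but Aplnr and Selp were not, and the sub-cluster stayed unnamed. Unc5d was also among the leading genes of another unnamed sub-cluster, of 108 nuclei. Ntn4, a netrin of basement membranes, was highest in the loop of Henle at both ages, at 189 and 122 CPM, followed by distal tubule (94.0 and 85.0). The netrin-Gs, which are tethered to the membrane and bind netrin-G ligands rather than Dcc, led in different classes. Ntng2 stood at 420 CPM in podocyte-like nuclei at E18.5 and 411 at P3, and the next class, early nephron, at 10.1 and 11.7. Its ratios of 41.6 (33.8 to 51.6) and 35.2 (24.7 to 51.5) were the largest of any member ranked. With doublets kept, its log2 ratio with 1 CPM added was 3.66 in place of 5.24 at E18.5. Thinned nuclei with a UMI of Ntng2 made up 25.5% of podocyte-like nuclei at E18.5 and 26.7% at P3, and 0.859% and 0.803% of early nephron-like nuclei, at unthinned median depths of 3286 and 5046 UMIs. Ntng1 was highest in interstitium-like nuclei (157 and 224 CPM), 1.74 times mural-like nuclei at E18.5 and 12.4 times leukocyte-like nuclei at P3, where mural-like nuclei were not ranked. Without mural-like nuclei its ratio at E18.5 was 7.85 (6.30 to 9.90), with endothelium next.

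Among semaphorins, the secreted class 3 ligands were spread over distinct classes. Sema3a was restricted to interstitium-like nuclei, at 759.7 CPM against 123 in mural-like nuclei at E18.5 (6.19 times, 4.95 to 7.87) and 975 against 121 in endothelium at P3 (8.06 times, 7.27 to 8.96). With doublets kept its log2 ratios were 1.80 and 2.23 in place of 2.62 and 3.001. Sema3e and Sema3g were restricted to podocytes. Sema3e stood there at 361 and 608 CPM, 9.75 times (8.79 to 10.8) and 11.1 times (9.96 to 12.4) the interstitium. Sema3g stood at 121 and 287 CPM, and its ratio to the next class was 4.09 (2.25 to 8.27) at E18.5, with leukocytes next, and 12.3 (9.45 to 16.2) at P3, with endothelium next. Sema3c was highest in proximal tubule-like nuclei at E18.5 (1165 CPM) and in ureteric epithelium at P3 (710.03), and it stood at 627 CPM in ureteric epithelium at E18.5 and 537 in proximal tubule at P3. The highest class of Sema3d was ureteric epithelium at E18.5 (221 CPM) and endothelium at P3 (314.5). Sema3f was highest in nephron progenitors at E18.5 (67.7 CPM) and in ureteric epithelium at P3 (46.4), and Sema3b, ranked at P3 only, in podocytes (24.9).

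The membrane-bound semaphorins of classes 4 to 7 led mostly in proximal tubule and endothelium. Sema4d was restricted to proximal tubule-like nuclei at 259 and 348.5 CPM, 2.66 times leukocytes at E18.5 (1.91 to 3.82) and 2.22 times early nephron at P3 (2.01 to 2.45), where its log2 ratio was 0.81 with doublets kept. Sema4a led there too, at 49.7 and 68.7 CPM, and Sema4g led in distal tubule at 50.6 and 51.5. Sema4b led in leukocyte-like nuclei at 97.2 and 70.01 CPM, with the loop of Henle next at a ratio of 1.28 (0.825 to 1.95) and 1.30 (0.862 to 1.93). Sema6a led in endothelium with 731 and 1228 CPM, 2.27 times ureteric epithelium at E18.5 (2.12 to 2.42) and 3.90 times interstitium at P3 (3.74 to 4.08). Sema4c led in endothelium at 42.9 and 86.9 CPM, Sema6d at 226 and 425, Sema7a at 8.04 and 13.6, and Sema6b, ranked at E18.5 only, at 11.7. The lead of Sema7a was a tie within counting error at both ages, at 1.05 (0.585 to 1.93) and 1.36 (0.539 to 4.41). For Sema4c at E18.5 the ratio to leukocytes was 2.27 (1.08 to 5.72). Sema5b was restricted to mural-like nuclei at E18.5 (216 CPM, 2.07 times endothelium, 1.69 to 2.52) and to endothelium at P3 (178 CPM, 3.18 times early nephron, 2.67 to 3.82). Mural-like nuclei were not ranked at P3, and without them Sema5b was restricted to endothelium at E18.5 too, by 2.55 times (2.22 to 2.93). The mural call was lost with doublets kept (log2 ratio 0.98) and as means of single nuclei (0.94). Sema5a was broad, with podocytes (777 CPM), mural nuclei (765) and interstitium (715) highest at E18.5, and Sema6c had 8.99 CPM in the interstitium at E18.5.

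Plexins are the semaphorin receptors. Of the 8 plexins ranked, 1 was restricted at E18.5 and 2 at P3, where 18.0% and 22.5% of all genes were, and over the 9 classes ranked at both ages 2 were restricted at E18.5. Plxnc1, the receptor of Sema7a, was restricted at both ages, in leukocyte-like nuclei at 67.5 and 110.02 CPM (3.54 times the interstitium, 2.26 to 5.33, and 3.83 times, 2.84 to 5.09). Plxnd1, the receptor of Sema3e, was highest in endothelium at 162 and 271 CPM, 1.90 times mural-like nuclei at E18.5 (1.43 to 2.56), or 3.88 times the interstitium (3.48 to 4.32) without mural-like nuclei, and, as the other restricted plexin at P3, 5.00 times podocytes there (3.76 to 6.795). Plxna2 led in endothelium at 170.3 and 265 CPM. Plxna4 led there at E18.5 (224 CPM) and in leukocytes at P3 (374 CPM against 314 in endothelium). Plxnb1 led in podocytes at 44.4 and 80.2 CPM, and Plxnb2 was broad, from 39.5 to 72.3 CPM over the E18.5 classes and from 24.6 to 68.01 over the P3 classes. Plxna1 led in ureteric epithelium at E18.5 (23.4 CPM) and interstitium at P3 (22.7), and Plxna3 in nephron progenitors (13.5) and early nephron (8.24).

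Several ephrins and Eph receptors were highest in the forming nephron. Efna5, a ligand anchored by lipid, was highest in nephron progenitor-like (919.5 CPM) and early nephron-like nuclei (866) at E18.5, and in early nephron (1155) and loop of Henle-like nuclei (1094) at P3. Its receptors Epha4 and Epha7 were restricted to early nephron-like nuclei. Epha4 stood at 506 and 692 CPM, 2.80 times (2.68 to 2.94) and 3.13 times (2.96 to 3.31) the interstitium, and Epha7 at 560.5 and 681, 2.36 times proximal tubule (2.21 to 2.51) and 3.64 times interstitium (3.43 to 3.86). Neither call was stable. For Epha4 at E18.5 the log2 ratio with 1 CPM added fell under the limit of 1, to 0.94 with doublets kept, 0.61 with Leiden clustering and 0.75 with 20 neighbors. The medullary interstitium-like cluster described below also held more Epha4 at E18.5 than the early nephron-like class. For Epha7 at P3 the log2 ratio was 1.86, but 0.76 with 20 neighbors. For Epha7 at E18.5, with called doublets kept, the log2 ratio of early nephron-like nuclei to the highest other class was -1.35, and with Leiden clustering it was -0.03. Epha3 was highest in interstitium at 443 and 644 CPM, 1.57 times mural-like nuclei (1.35 to 1.83) at E18.5 and 5.14 times endothelium (4.64 to 5.71) at P3. Without mural-like nuclei it was 4.82 times endothelium (4.35 to 5.36) at E18.5. Ephb2 led in the loop of Henle at 210 and 261 CPM, and Ephb3 in early nephron at 24.5 and 29.5.

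Ephb1 and Ephb4 were restricted to endothelium. Ephb1 stood at 394 and 753.5 CPM, 2.01 times podocytes at E18.5 (1.82 to 2.23) and 3.34 times at P3 (2.90 to 3.87), the E18.5 call being lost with doublets kept or Leiden clustering, and Ephb4 at 157 and 194 CPM, 2.69 times (2.01 to 3.66) and 4.04 times (3.24 to 5.09) the loop of Henle. Efnb2, the ligand of Ephb4, also led in endothelium at 363.5 and 237 CPM, but ureteric epithelium was close at 311 and 185, or 1.17 times lower (1.08 to 1.26) and 1.28 times lower (1.14 to 1.44). Efnb1 led in podocytes at 95.3 and 170.1 CPM and was restricted there at P3 (5.20 times endothelium, 4.02 to 6.74). Efna1 led in endothelium at 38.01 and 36.6 CPM. Epha1, Epha2, Epha5 and Efna2 had at most 18.3 CPM in any ranked class at E18.5, and Efna4, Efnb3, Ephb6 and Ntn3 at most 23.4 at P3.

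The 6 members restricted to endothelium at both ages included neighbours in the genome. Robo4, the Robo known from vessels, lies on chromosome 9 from 37401897 to 37415115 on the plus strand, and Robo3 lies beside it on the minus strand, from 37415669 to 37433246 (mm10, GENCODE M21). Robo4 stood at 77.2 and 113 CPM in endothelium, 10.99 times the loop of Henle (4.99 to 30.2) and 15.0 times podocytes (7.18 to 37.5), and was detected in 8.64% and 11.1% of thinned endothelium-like nuclei. Robo3 was sparse, at 10.96 and 23.7 CPM there, and its ratios of 4.68 (1.22 to 39.8) and 11.8 (2.06 to 474) rested on 64 and 95 UMIs in all nuclei. Because these genes shared a leading class, the 250 bases before their RefSeq starts (GRCm38.p6) were searched for AGGAAG or its reverse CTTCCT, a sequence of the kind bound by ETS factors, which are known for driving endothelial genes. The matches were counted on both strands. Of all 32851 promoters in the table, 29.5% held it, as did 33.3% of 75 promoters of the 59 members that were matched. Of the 6 promoters of Ephb1, Ephb4, Robo3, Robo4 and Sema4c, which has 2, it was found in 3. Sema6a was not analysed here. The promoters of 4 receptors are shown 5′ to 3′ with matches in capitals, at chr9:102354694-102354943 (Ephb1, minus strand), chr5:137349859-137350108 (Ephb4, plus), chr9:37433176-37433425 (Robo3, minus) and chr9:37401722-37401971 (Robo4, plus).
Ephb1: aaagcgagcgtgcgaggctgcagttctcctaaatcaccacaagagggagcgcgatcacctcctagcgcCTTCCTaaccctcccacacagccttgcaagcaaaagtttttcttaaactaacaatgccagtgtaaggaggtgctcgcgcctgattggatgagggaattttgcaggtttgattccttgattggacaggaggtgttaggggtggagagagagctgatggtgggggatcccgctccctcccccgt
Ephb4: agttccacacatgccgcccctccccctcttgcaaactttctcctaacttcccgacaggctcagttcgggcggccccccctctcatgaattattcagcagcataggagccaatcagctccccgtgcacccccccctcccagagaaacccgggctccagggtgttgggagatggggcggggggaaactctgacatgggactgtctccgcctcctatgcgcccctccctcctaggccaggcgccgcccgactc
Robo3: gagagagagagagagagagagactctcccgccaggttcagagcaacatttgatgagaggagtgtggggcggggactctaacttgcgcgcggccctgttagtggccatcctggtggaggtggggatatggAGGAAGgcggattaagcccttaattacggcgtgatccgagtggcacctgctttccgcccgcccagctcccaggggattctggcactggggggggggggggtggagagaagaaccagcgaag
Robo4: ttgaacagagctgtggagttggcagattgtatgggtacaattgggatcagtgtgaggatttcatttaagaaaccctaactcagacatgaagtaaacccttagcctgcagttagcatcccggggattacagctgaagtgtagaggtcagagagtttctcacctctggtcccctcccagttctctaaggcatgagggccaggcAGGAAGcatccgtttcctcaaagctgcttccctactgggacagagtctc
Counted from the RefSeq start, the matches began at -182 in Ephb1, where the letters lie on the reverse strand, at -121 in Robo3 and at -49 in Robo4, and Ephb4 had none in this window. The RefSeq starts of Robo3 and Robo4 lie inside the GENCODE spans given above, so the Robo4 match falls within that span and not before it. A match is a description of letters and not of a bound site.

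The members also differed between clusters within a class. For 6 pairs of clusters that could be found at both ages, chosen after the clusters had been seen, members were counted where 1 cluster had at least 2 times the level of its partner, in the same direction at both ages. In none of the 6 pairs was a member at least 2 times higher in 1 cluster at E18.5 and in its partner at P3.

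In the early nephron, 13 of 37 members (35.1%) differed between the cluster led by Nrcam and the cluster with Grid1 among its leading genes, against 4.64% of all genes. The first cluster held 1017 nuclei at E18.5 and 281 at P3, and the other 906 and 217. Slit1 was at 96.3 CPM in the Nrcam-led cluster and 12.3 in its partner at E18.5, and at 139 and 8.03 at P3, ratios of 7.82 (5.70 to 10.97) and 17.3 (9.23 to 36.5). Plxna4 stood at 249.9 and 45.9 CPM at E18.5 and at 276 and 22.5 at P3. Efna5, Ephb1, Ephb2, Ephb3, Sema6d, Unc5b and Unc5d were higher in the same cluster, with Efna5 at 1209 against 589 CPM at E18.5 and 1815 against 273 at P3. The Grid1-led cluster was higher for Epha7 (1002 against 365 CPM and 1003 against 440), Slit3 (716 against 211 and 804 against 222), Sema3d (236 against 55.4 and 319 against 80.5) and Dcc (35.5 against 7.10 and 42.5 against 9.01). Epha7 and its ligand Efna5 were thus high in different early nephron clusters.

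In podocytes, 5 of 21 members (23.8%) differed between the clusters with Magi2 and with Ndnf among their leading genes, against 6.98% of all genes. All 9 podocyte markers were raised in the former at both ages, and 6 of 9 at E18.5 and all 9 at P3 in the latter. Sema3e was at 481 CPM in the Magi2-led and 40.9 in the Ndnf-led cluster at E18.5, and at 852 and 145 at P3, so that it was 0.085 times (0.0517 to 0.132) and 0.170 times (0.123 to 0.230) as high in the latter. Sema3g followed, at 152 against 57.3 CPM and 405 against 62.9. Efnb2 (450.1 against 201 CPM and 302 against 64.5), Robo1 (532 against 242 and 506 against 226.5) and Slit3 (90.03 against 42.4 and 97.5 against 44.6) were higher in the Ndnf-led cluster. Robo2 was at 10150.5 CPM in the Ndnf-led and 7005 in the Magi2-led cluster at E18.5, and at 9246 and 4365 at P3.

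In ureteric epithelium, 5 of 33 members (15.2%) differed between the clusters with Slco4c1 and with Mgat4c among their leading genes, against 4.79% of all genes. All 4 tip markers were raised in the former at E18.5, where 3 tip and 3 collecting duct markers were raised at P3, and all 4 collecting duct markers were raised in the latter at both ages. Slit2 was at 3034 CPM in the Slco4c1-led and 1232 in the Mgat4c-led cluster at E18.5 and at 2447 and 897 at P3. Sema6a (601 against 72.2 CPM and 330.2 against 85.9), Sema3d (361 against 106 and 266 against 62.5) and Robo1 (758 against 192 and 573.5 against 277) were higher in the same cluster. Plxna2, at 28.1 against 115 CPM and 70.98 against 293, was higher in the Mgat4c-led cluster.

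Interstitium-like clusters were compared with the cluster at each age that had Col14a1 among its leading genes. In it 4 cortical and 2 medullary markers were raised at E18.5, with the medullary marker Zfp536 as its first leading gene, and 3 cortical markers at P3, so it was given no subset name. Between it and a medullary cluster, in which all 4 medullary markers were raised at both ages and 1 cortical marker at P3, 8 of 48 members (16.7%) differed, against 3.12% of all genes. Medullary nuclei were higher for Sema6d (649 against 47.7 CPM at E18.5 and 228 against 69.8 at P3), Dcc (242 against 22.8 and 59.6 against 16.8), Epha4 (705.5 against 129.8 and 383 against 63.4), Sema3e (142 against 29.4 and 90.2 against 13.8), Sema3c, Sema3a and Epha7. The Col14a1-led cluster was higher for Robo2, at 1767 against 409 CPM at E18.5 and 2243 against 1118 at P3. Against the same Col14a1-led nuclei, a Gria1-led cluster, in which 2 nephrogenic zone markers were raised at E18.5 and 1 at P3, differed in 4 of 40 members (10.0%), where 2.81% of all genes did. Ntn1 was at 862.5 CPM in it and 59.2 in Col14a1-led nuclei at E18.5, and at 252 and 29.4 at P3, ratios of 14.6 (13.3 to 15.9) and 8.57 (7.06 to 10.5). Ntng1 was higher in it (364 against 97.3 CPM and 557.5 against 46.8). Epha3 was lower, at 42.0 against 605 CPM and 119 against 997, as was Plxnc1, at 8.45 against 24.3 and 8.09 against 23.6.

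Endothelium-like nuclei were clustered again, and a sub-cluster of 31 nuclei at E18.5 and 39 at P3 was called arterial from the markers Gja5, Sox17 and Bmx, with Gja4 and Dll4 raised as well at P3. Between it and the remaining endothelium, 14 of 34 members (41.2%) differed, against 10.1% of all genes. Efnb2, an arterial gene in other tissues, was at 1202 against 345 CPM at E18.5 (3.49 times, 2.84 to 4.24) and at 610.5 against 217 at P3 (2.81 times, 2.25 to 3.49). Sema6d (979.6 against 209 CPM and 1863 against 348), Sema3g (200.4 against 22.4 and 184 against 14.7), Efna5 (501 against 144 and 636 against 119) and Ntn4 (178 against 19.7 and 114 against 22.2) were also higher, as were Efna1, Epha4 and Unc5b. Unc5c was lower in arterial nuclei, at 145 against 1209 CPM and 203.5 against 1892, and so was Ephb1, at 178 against 399 and 191 against 784. Sema3d, Sema4c, Sema5b and Unc5d were lower on 0 to 4 UMIs in arterial nuclei at each age. Sema4c had 0 UMIs there at E18.5, which allows up to 33.4 CPM, and Unc5d had 0 at P3, which allows up to 19.1. All endothelium-like nuclei held 42.9 CPM of Sema4c at E18.5, so a level 2 times lower in arterial nuclei was not shown for it there. These sparse members are among the 14, so the 41.2% includes calls that rest on few arterial UMIs. No share without such calls is given for members or for all genes.

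The sub-cluster of 26 P3 nuclei with raised Nr2f2 and Vwf differed in level from the arterial nuclei for several members. It held 21.1 CPM of Efnb2, from 2 UMIs, 274 of Ephb4, 3736 of Unc5c and 1277 of Slit3. Arterial nuclei at P3 held 114.5 CPM of Ephb4 and 146 of Slit3. For Ephb4 the intervals of the 26 nuclei (179 to 402) and of arterial nuclei (67.8 to 181) overlapped. Its level was also 237 CPM in the sub-cluster of 290 nuclei and 223 in that of 108, so it was not particular to the 26.

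**Figure D3:**
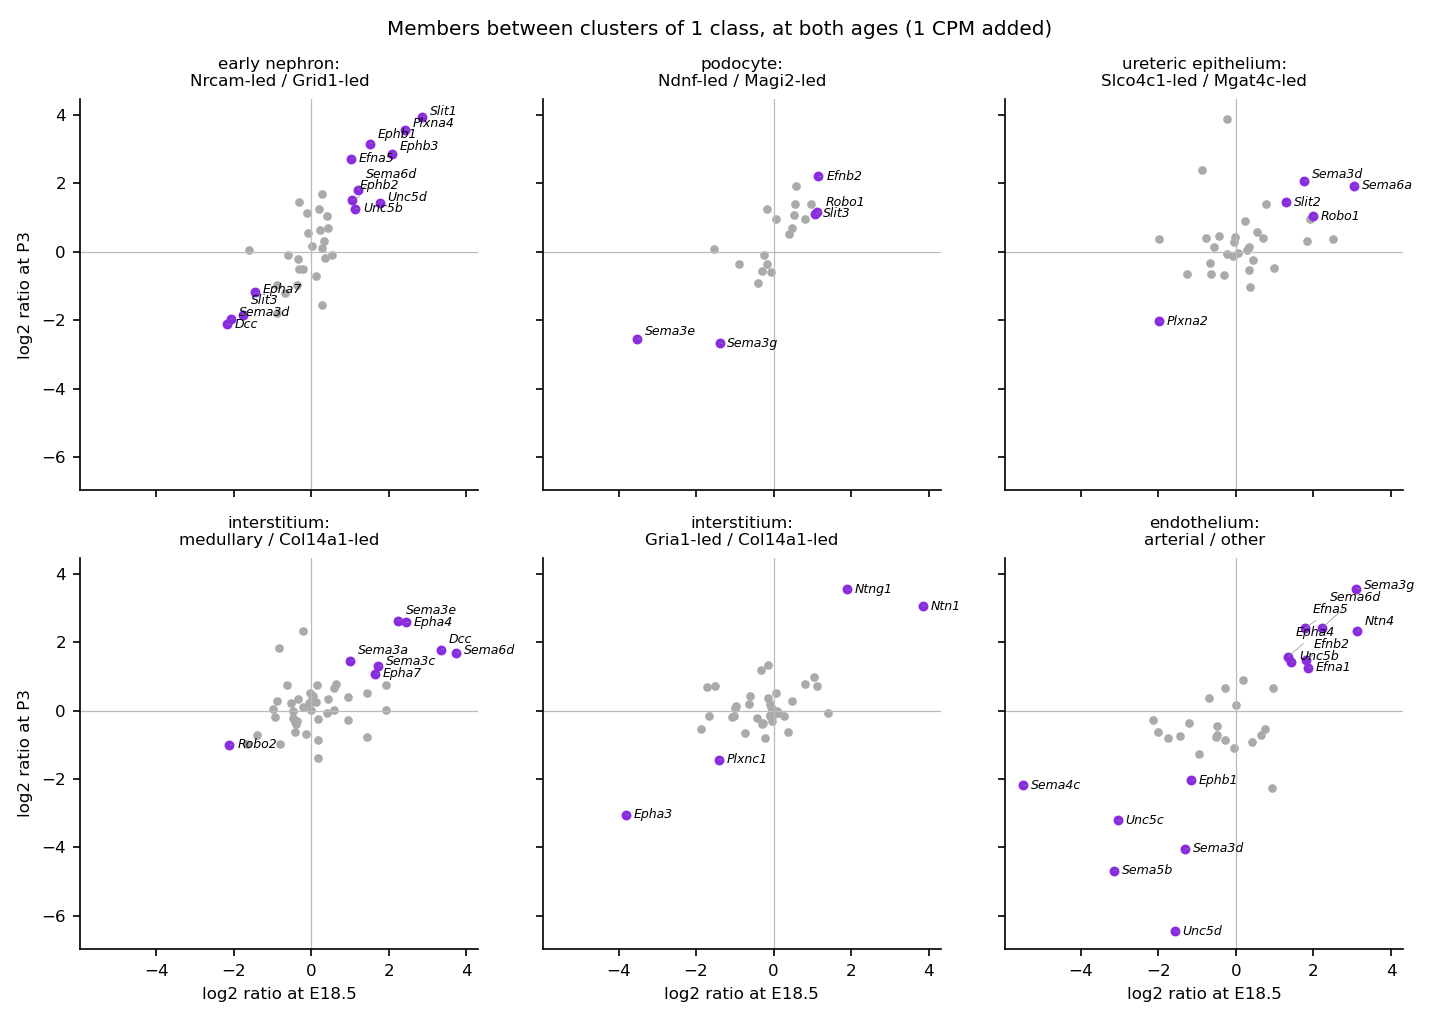
Log2 ratio of each member between 2 clusters of a class at E18.5 (x axis) and P3 (y axis), with 1 CPM added, in 6 panels. Each point is a member with enough UMIs at both ages, and purple, named points are the members at least 2 times apart in the same direction at both ages, such as Efnb2 and Sema3g in arterial nuclei.

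Ligands and receptors were also set side by side by their highest class, with no background share. Of 41 pairs taken from background knowledge, 6 of the 38 measured at E18.5 had the same leading class for both partners: Efna1 with Epha2, Efnb2 with Ephb4, and Sema6a with Plxna2 and with Plxna4 in endothelium, Sema3f with Plxna3 in nephron progenitors and Sema4g with Plxnb2 in distal tubule. At P3 these were 7 of 37, among them Efna5 with Epha4 and with Epha7, and Slit1 and Slit3 with Robo1, in early nephron. Efnb2 with Ephb4 and Sema6a with Plxna2 were in both counts. Several other pairs rested on a lead that was a tie within counting error. At E18.5 the ratio to the next class spanned 1 for Epha2 (0.924 to 2.17), Plxna3 (0.829 to 1.71), Plxnb2 (0.704 to 1.78) and Sema4g (0.856 to 1.94). At P3 it spanned 1 for Efna5 (0.999 to 1.12), Slit1 (0.827 to 1.74) and Plxna1 (0.780 to 1.39), which was paired with Sema3a. Over the 9 classes ranked at both ages, 10 of 38 pairs shared a class at E18.5, and 6 did so at both ages, since Efna5 with Epha4 and with Epha7, and Slit1 and Slit3 with Robo1, then led in early nephron at E18.5 as well. The lead of Efna5 there was again a tie (0.996 to 1.08), and that of Epha7 at E18.5 reversed with doublets kept. Within the early nephron, Efna5 and Epha7 were also high in different clusters, as given above. Sema3e and Plxnd1 were apart at both ages: podocyte-like nuclei held 361 and 608 CPM of Sema3e with 39.4 and 54.2 of Plxnd1, and endothelium-like nuclei held 162 and 271 CPM of Plxnd1 with 12.7 and 8.75 of Sema3e.

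Of the 44 further genes of these pathways, 40 were ranked at E18.5 and 41 at P3. Of these, 12 and 13 were restricted, where 18.0% and 22.5% of all genes were. Srgap1, which carries the signal of Robos to the cytoskeleton, was restricted to podocytes as Robo2 was at P3, at 4038 CPM at E18.5 and 6268 at P3, or 6.62 and 10.1 times the next class. Nrp2, a neuropilin, was restricted to endothelium at 288 and 366 CPM, and Nrp1, its relative, to mural-like nuclei at E18.5 (1383 CPM against 657 in endothelium). At P3, where mural-like nuclei were not ranked, Nrp1 was not restricted, with 716 CPM in leukocyte-like and 654 in endothelium-like nuclei. Arhgef15, an exchange factor that acts below Eph receptors in vessels, stood at 140.6 and 140.7 CPM in endothelium, 10.9 and 32.5 times the next class. Flrt3, a ligand of Unc5 receptors, led in endothelium at 73.8 and 89.8 CPM, and Lrrc4c, the ligand of Ntng1, in the loop of Henle at 254 and 259. Ngef, an exchange factor bound to EphA receptors, was 3.48 times higher at P3 (3.06 to 3.97) and the single gene of the 44 at least 2 times apart between the ages with 1 CPM added. Gpc1, a glypican, had a ratio of 0.468 (0.411 to 0.532) with none added.

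Between the ages, over all kept nuclei, 64 members had at least 50 UMIs at 1 age. With 1 CPM added to both ages, only Sema5a was at least 2 times higher at P3, or 1.56% of members against 3.03% of all genes. Epha5, Ntng2 and Robo2 were at least 2 times higher at E18.5, or 4.69% against 6.65%. Both shares rested on few members and were near those of all genes, whose median ratio was 0.928. Sema5a, a transmembrane semaphorin, stood at 498 CPM at E18.5 and 1195 at P3, a ratio of 2.40 (2.36 to 2.43). It was higher at P3 in each of the 9 classes ranked at both ages, by 1.36 times in proximal tubule to 2.88 times in interstitium, and it was the only member whose interval lay above 1 in all 9. In the interstitium the mix of clusters differed, with 3023 of 4811 nuclei in the Col14a1-led cluster at E18.5 and 1177 of 2918 in the medullary cluster at P3. Sema5a stood at 621 CPM in Col14a1-led nuclei at E18.5 and 1488 at P3, at 169 and 1015 in the Gria1-led cluster, and at 2375 and 2473 in medullary nuclei.

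**Figure D4:**
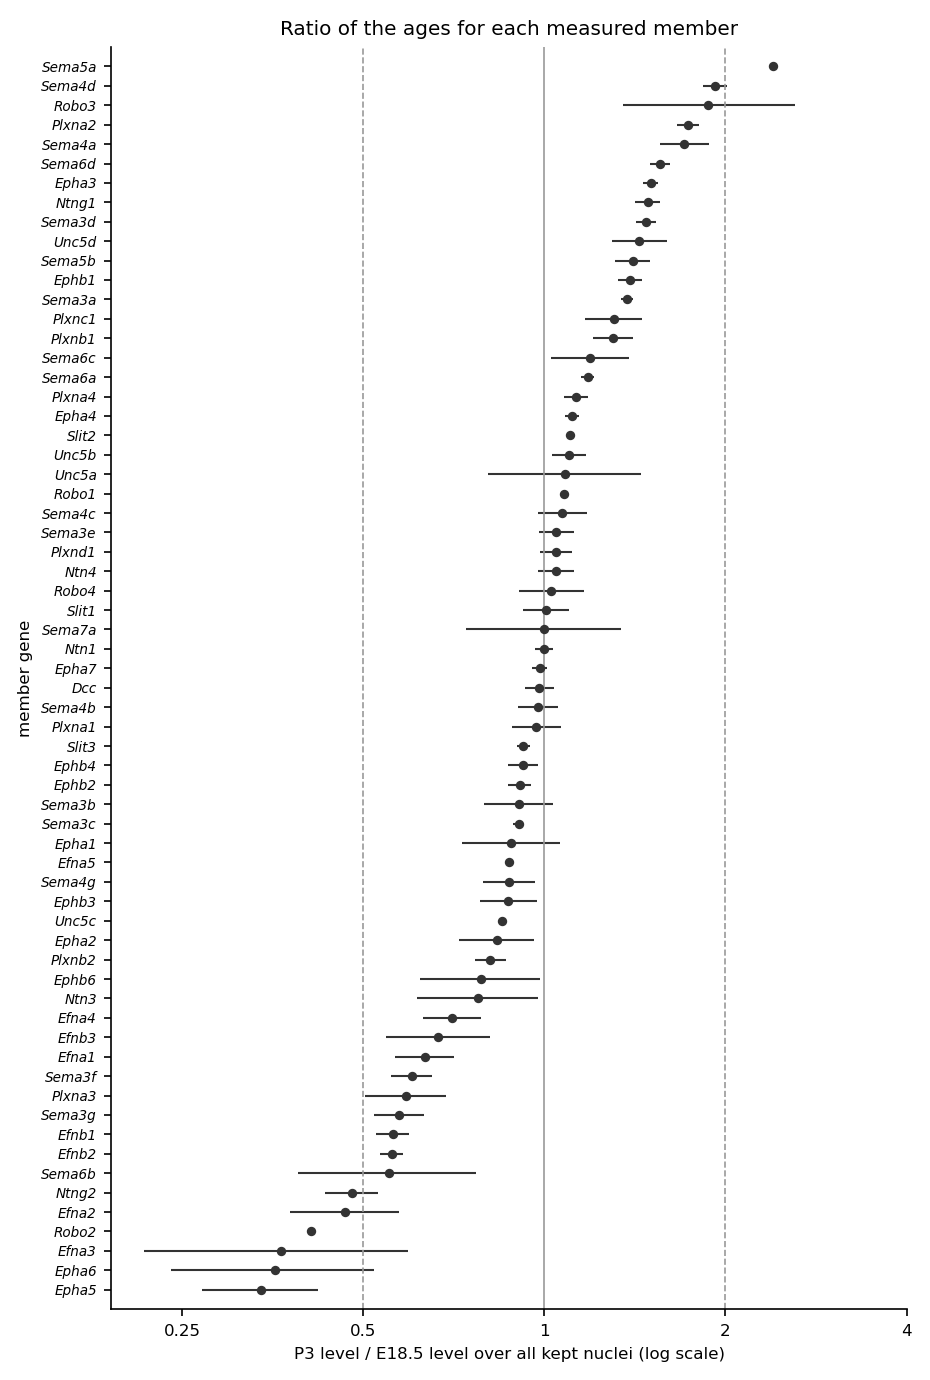
Ratio of the P3 to the E18.5 level over all kept nuclei (log axis) for the 64 members with at least 50 UMIs at 1 age, with exact 95% intervals for counting error. Dashed lines mark 2 times in either direction, and Sema5a at 2.40 stands alone on the right. The plotted ratios have no CPM added. Efna2, Efna3 and Epha6 therefore also lie beyond the left line, though they were not called with 1 CPM added.

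Robo2 stood at 1953 CPM over all E18.5 nuclei and at 799 over P3 nuclei, a ratio of 0.409 (0.404 to 0.414). Within classes its ratio was 0.805 (0.781 to 0.829) in podocytes, 0.952 (0.935 to 0.970) in interstitium, 0.414 (0.384 to 0.447) in the loop of Henle, 0.350 (0.325 to 0.376) in early nephron and 0.270 (0.248 to 0.294) in proximal tubule. Nephron progenitor-like nuclei, which had 6467 CPM of Robo2, were 12.2% of E18.5 nuclei. The early nephron class held another cluster at E18.5, led by Tmem132c, with 758 nuclei and 1445 CPM of Robo2, which had no counterpart in that class at P3. With the 9 classes ranked at both ages weighted to their E18.5 shares, the log2 ratio of P3 to E18.5 for Robo2 was -0.41 instead of -1.29. No member was then at least 2 times higher at E18.5. Nephron progenitor-like nuclei had no ranked class at P3 and are left out of this weighting. The 2 log2 ratios thus cover different sets of nuclei, and the part of class shares in the difference was not tested.

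Ntng2 stood at 24.5 and 11.7 CPM over all nuclei, a ratio of 0.479 (0.432 to 0.529), but within podocyte-like nuclei its levels were 420 and 411 CPM, a ratio of 0.978 (0.868 to 1.10). Podocyte-like nuclei were 4.22% of nuclei at E18.5 and 2.02% at P3. Epha5 stood at 6.89 and 2.33 CPM, a ratio of 0.339 (0.270 to 0.421). At E18.5 a cluster of 22 neuron-like nuclei held 1222 CPM of Epha5, 3932 of Sema6d, 1989 of Plxna4 and 862 of Dcc, and no such cluster was found at P3.

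**Figure D5:**
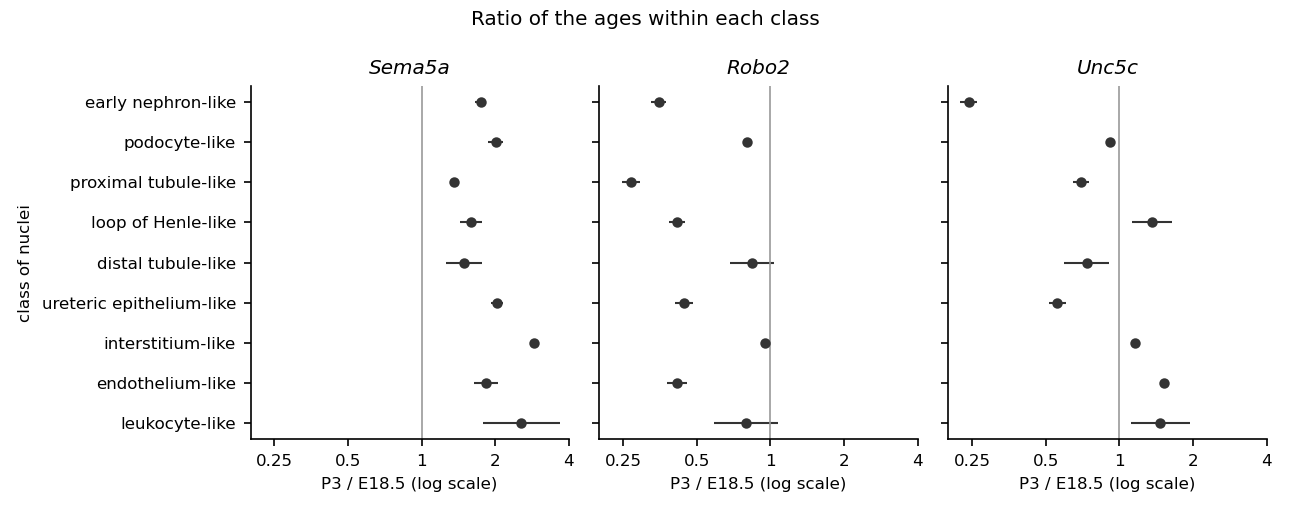
Ratio of the P3 to the E18.5 level within each of the 9 classes ranked at both ages (log axis) for Sema5a, Robo2 and Unc5c, with exact 95% intervals for counting error. Sema5a lies above 1 in each class and Robo2 runs from 0.270 to 0.952. Unc5c runs from 0.243 in early nephron, whose mix of clusters differed between the ages, to 1.52 in endothelium.

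Within classes, proximal tubule-like nuclei stood out, with 11 of 43 members at least 2 times higher at E18.5 and a median P3 to E18.5 ratio of 0.699, against 0.923 for all genes there. The 11 were Dcc, Efnb1, Efnb2, Ephb2, Plxnd1, Robo1, Robo2, Sema3c, Sema3d, Sema3f and Sema3g, and 10.4% of all genes in that class were as far apart in that direction. Endothelium-like nuclei had 4 of 42 members at least 2 times higher at P3, Robo3, Sema3d, Sema4c and Unc5d, where 1.66% of all genes were. Efnb2 was lower at P3 in each of the 9 classes, from 0.344 to 0.823 times, and in 8 of them the interval lay below 1. Slit2 differed in direction, at 3.07 times (2.79 to 3.38) in distal tubule, 1.65 times (1.54 to 1.78) in the loop of Henle and 0.602 times (0.559 to 0.647) in proximal tubule. In the P3 distal class, Slit2 was far higher in the Plppr1-led than in the Slc12a3-led cluster, as given above. The part of the mix of clusters in the distal ratio was not tested.

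Gene length moved with these ratios. The median ratio of P3 to E18.5 over all genes was 0.763 for spans under 10 kb, 0.942 for 10 to 100 kb and 1.19 for spans over 100 kb. Of the 64 members, 31 spanned over 100 kb, with a median ratio of 1.10, and Sema5a (452 kb) and Robo2 (520 kb), the former higher and the latter lower at P3, were both among them. The part of gene length in the members' ratios was not tested.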

How the data were processed

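Nuclei of whole kidneys were profiled with 10x Genomics chemistry, 1 library per age. The authors deposited raw UMI counts per gene and nucleus, aligned to mm10; the processing notes name Cell Ranger 5.0.1, whereas the matrix headers give 7.0.0 for the E18.5 library and 5.0.1 for that of P3. Whether intronic reads were counted is not given in the sources used here. Barcodes over 3 median absolute deviations below the median of log UMIs or log genes, or that far (at least 0.5 percentage points) above the median mitochondrial share, were dropped. Nuclei that scrublet (scanpy 1.11.5, with the expected doublet rate set to 0.1) called doublets were removed: 16.1% of barcodes within limits at E18.5 and 17.9% at P3. Counts were normalised by deconvolution in scran 1.30.0, and 2000 variable genes without the members or 44 pathway genes gave 50 principal components, a graph of 10 neighbors and Walktrap clusters (igraph 2.1.4), 28 per age.

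A marker was raised at 2 times the other nuclei with 10 CPM added and at least 10 UMIs. A class needed 100 nuclei to be ranked, and a member 50 UMIs in all and 20 in its highest class. Levels are counts summed over nuclei for each 1000000 UMIs (CPM), with exact Poisson intervals, and ratios have conditional binomial intervals (scipy 1.17.1). Shares of nuclei with a UMI were compared after thinning to 1000 UMIs, and a count of 0 was given the limit of 3 counts. Gene spans came from GENCODE vM21. Scripts were tested on simulated data.

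Members, lists and pairs were chosen with earlier results of these data known. Naming rules for clusters and the pairs of clusters were set after the clusters had been seen. Any member could be named, with full values for members restricted at both ages, partners of described pairs and members that changed at least 2 times between the ages. Alternatives were keeping doublets, Leiden clustering, 20 neighbors, a minimum of 100 UMIs, 0 CPM added, means of single nuclei, E18.5 class shares and all deposited barcodes. The class shares were taken over the classes ranked at both ages.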

Additional observations from a re-analysis of the deposited data

Results flagged for a closer look

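Unc5d and Dcc, both netrin receptors, had a pair of classes whose order turned between the ages. For Unc5d, loop of Henle-like nuclei stood at 89.0 CPM and endothelium-like nuclei at 34.6 at E18.5, and at 32.3 and 82.3 CPM at P3, so that the log2 ratio of loop to endothelium, with 1 CPM added, was 2.66 higher at E18.5 than at P3. With doublets kept, the P3 endothelium was above the highest other class by 0.51 on the log2 scale in place of 1.32. For Dcc, proximal tubule-like nuclei stood at 48.1 CPM and distal tubule-like nuclei at 5.42, from 3 UMIs, at E18.5, and at 7.86 and 17.2 CPM at P3, a gap of 3.97 on the log2 scale with 1 CPM added. With 1 library per age, the difference was not tested for either gene.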

How the results depend on the processing

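Over the alternatives, the number of restricted members ran from 14 of 57 (doublets kept) to 20 of 56 (0 CPM added) for E18.5. For P3 it ran from 23 of 59 (doublets kept) to 27 of 57 (means of single nuclei). It was 23 for E18.5 over the 9 classes ranked at both ages, where 2461 of 12761 genes were restricted. The leading class was shared between the ages by 29 of 54 members (Leiden clustering) to 36 of 50 (20 neighbors). Over those 9 classes it was shared by 40 of 51. As reported above it was shared by 34 of 51, against 54.0% of all genes. For the alternatives, no share over all genes is given apart from the 2461 of 12761. Pairs of ligand and receptor with the same leading class numbered 5 to 8 (E18.5) and 5 to 7 (P3), but 10 for E18.5 over those 9 classes, a choice made after seeing the data. Sema5a was the member at least 2 times higher at P3 under each alternative. Members at least 2 times higher at E18.5 were 3 as reported, 6 with 0 CPM added (Efna2, Efna3 and Epha6 joined), 2 as means of single nuclei and 0 with E18.5 class shares. The last of these leaves out nephron progenitor-like nuclei, which had no ranked class at P3. The ratio of early nephron-like nuclei to the highest other class for Epha7 at E18.5 turned to -1.35 on the log2 scale with doublets kept and to -0.0268 with Leiden clustering, and the cause was not tested. Of 123 values of single members in their leading class under an alternative, 92 stayed within the counting interval, 29 left it and 2 reversed. Of 16 ratios between the ages, 2 stayed within it, 14 left it and 0 reversed. No paired analysis was possible because each age had 1 library. Sparse members such as Robo3 and Sema7a, and clusters of under 40 nuclei, were limited by depth, and a difference between the libraries cannot be told from a difference between the ages.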

Other observations

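Several small clusters held members at levels that their class did not show. An interstitium-like cluster with Ebf2 among its leading genes, of 143 nuclei at E18.5 and 37 at P3, held 775 CPM of Slit3 (700.3 to 856) and 743 (623 to 879), while Slit3 was highest in mural-like nuclei at E18.5. The 758 early nephron-like nuclei led by Tmem132c at E18.5 held 2481 CPM of Unc5c, close to the 2741 CPM of nephron progenitor-like nuclei. The 22 neuron-like nuclei at E18.5 held 1848 CPM of Slit3 (1620 to 2100).

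Within classes, 6 of 53 members were at least 2 times higher at E18.5 in early nephron-like nuclei (Efnb1, Efnb2, Plxnd1, Robo2, Sema3g and Unc5c). This was near the share of all genes, 9.41%. The Tmem132c-led cluster had no counterpart in that class at P3, so the ratios compare different mixes of clusters. In interstitium-like nuclei 7 of 59 members were at least 2 times higher at E18.5, Efna1, Epha5, Epha6, Ntn1, Robo4, Sema3b and Sema3g. This too was near the share of all genes, 10.99%. In leukocyte-like nuclei 3 of 11 members, Plxna4, Sema3a and Sema5a, were at least 2 times higher at P3, against 6.59% of all genes. Sema5b was higher at P3 in each of the 9 classes, by 1.11 to 4.97 times, with the interval above 1 in 3 of them.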
